A study of Arabidopsis thaliana with 111 samples.

Results

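The comparison described here is that of the radicle with the embryonic axis (RAD) at 12 h against 7 h after sowing. It used the 4 arrays whose titles named RAD at 12 h and the 4 that named RAD at 7 h, 2 of the 28 groups of arrays in the study, and all 21313 loci of the deposited table of log2 values. The study followed germinating Arabidopsis thaliana seeds with Affymetrix arrays, in whole dry seed and then in hand-dissected seed parts at successive stages. Both groups were wild-type seed of the accession Col-0 (stock N60000), sown on 0.7% water agarose and kept in the light without a dark period at 22 °C, with no further treatment. They differed by the hours since sowing. Over the same hours the micropylar and chalazal endosperm (MCE), the living tissue around the embryo, was measured on 4 arrays at 7 h and 4 at 12 h, and it serves below for comparison. The RAD samples hold the root tip together with the axis above it, so a value is an average over all cell types of the embryonic axis. The labels do not say whether replicates came from separate seed batches, so the spread between replicates, against which differences are tested, may be technical variation. For each gene this spread was estimated over all 28 groups, not from the RAD arrays by themselves. Where the RAD arrays of a gene vary more than its other groups, its standard error (SE) and p-value below are smaller than these arrays by themselves would give.

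A dry seed holds a store of transcripts from maturation, among them messages for storage proteins, oil body proteins, late embryogenesis abundant (LEA) proteins and heat shock proteins, which protect cells that lose their water. After water uptake this store is broken down while gibberellin, the hormone that promotes germination, is made in the axis, and abscisic acid, the hormone that holds germination back, is degraded. The radicle then emerges by elongation of cells whose walls are loosened by expansins and by xyloglucan endotransglucosylase/hydrolases (XTH), and DNA replication resumes in the axis before or around emergence.

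Array medians were 4.89 to 4.95 on the log2 scale at 7 h and 5.05 to 5.09 at 12 h. Every 12 h median thus lay slightly above every 7 h median. One array stood apart: replicate 3 at 7 h, which the labels describe as redone for quality reasons (as they do replicate 2 of MCE at both times). Its root mean square distance from the mean of the other replicates was 0.41, against 0.238 to 0.308 for the other 7 h arrays and 0.207 to 0.298 for the 12 h arrays. Over loci called higher at 12 h in a fit without it, its value minus the mean of the other 7 h arrays had a median of -0.35, over loci called lower without it 0.30, and over the rest 0.04, so it lay farther from the 12 h arrays than they did. Results are given with and without this array where it matters. Of the radicle markers, 4 of 9 measured rose (SHR, SMB, WER and PIN2), and their mean level was 4.95 to 5.42 per array at 7 h and 6.05 to 6.45 at 12 h, against 3.73 to 3.96 in MCE over both times. Of the endosperm markers, 2 of 5 rose (MAN7 and CP1) and 1 fell (EPR1), with a mean level of 5.96 to 6.37 at 7 h and 6.44 to 6.88 at 12 h in RAD, against 8.62 to 10.94 in MCE. EXPA2, an expansin of the endosperm, lay between 4.18 and 5.05 on the RAD arrays and had means of 8.78 and 13.46 in MCE at 7 h and 12 h. Other markers of this list were higher in RAD: CP1 had means of 10.70 and 12.06 at 7 h and 12 h. EPR1 had RAD means of 7.20 and 5.85, and MAN7 of 4.93 and 6.03. No seed coat marker (0 of 9) and no cotyledon or shoot apex marker (0 of 9) was called, and the mean levels of these lists were 3.67 to 3.94 and 3.43 to 3.60. RMA values have no zero, so no marker can be said to be absent. MAN7 was under the fold minimum without replicate 1 at 12 h (1.00, not called) and after a repeated quantile normalization (0.95). The part of other tissues in the results was not tested.

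Between 7 h and 12 h messages for heat shock, LEA, storage and oil body proteins fell. OLEO4 had a log2 difference of -2.83 and HSP101 one of -4.40. Many genes of cell wall loosening, of microtubules and of DNA replication rose. XTH9 rose by 4.54, or by 3.79 without replicate 3 at 7 h. Genes of root identity rose in part, with 8 of 24 genes of the root meristem, root cap and auxin transport called higher (median 0.17). Called here means that limma's p, adjusted by Benjamini and Hochberg's method, was under 0.05 and that the groups differed by 1 or more on the log2 scale. By this rule 2243 of 21313 loci were called, 10.5% of all: 1285 higher at 12 h (6.03%) and 958 lower (4.49%). Of all loci, 18.7% had every 12 h array above every 7 h array and 16.1% every 12 h array below. Among the called loci 1265 of the higher and 945 of the lower did not overlap between the groups. The fold minimum set the count, since 2244 loci differed by at least 1 whatever their p. The median over all loci was -0.04. After a repeated quantile normalization 1177 loci were called higher and 1054 lower, a smaller excess of higher ones. The files hold no detection calls, so where a group lies near the bottom of the scale the true level is uncertain and the difference may be understated. Without replicate 3 at 7 h, 2001 loci were called, of which 1931 were also called in the same direction with it. Since values are relative to the other transcripts on an array, fewer cells of a type and less RNA per cell cannot be told apart. Unless stated, the genes named below as risen or fallen had an adjusted p of at most 0.00106.

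**Figure D1:**
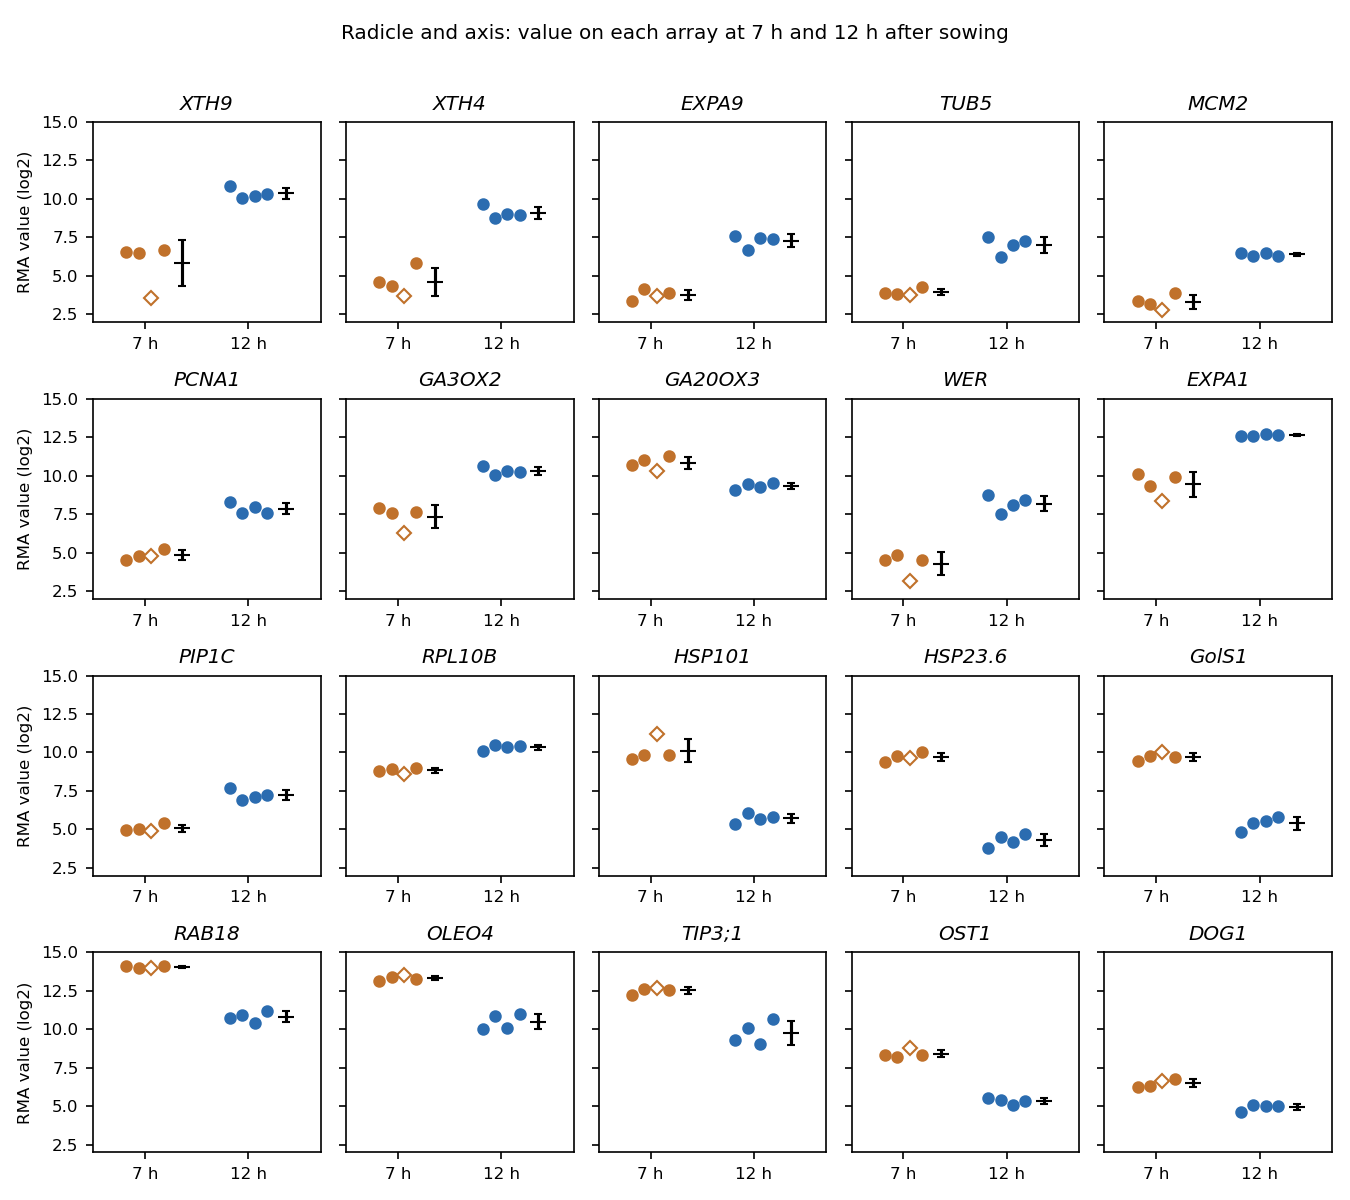
Log2 RMA value of 20 genes on each of the 4 RAD arrays at 7 h (orange) and the 4 at 12 h (blue), with the mean and SD in black. The open diamond is replicate 3 at 7 h. In all 20 genes the groups do not overlap, and XTH9 on this array (3.59) lies below the other 7 h arrays (6.47 to 6.68).

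Heat shock proteins had the lowest median of the 28 gene lists. Of 11 measured members of the list of seed heat shock proteins and their activator HSFA9, 10 fell and none rose, with a median difference of -3.13. HSP23.6, a small heat shock protein of mitochondria, read 9.39, 9.80, 9.66 and 10.02 at 7 h and 3.82, 4.53, 4.18 and 4.69 at 12 h. Every 7 h array was high and every 12 h array was near the bottom of the scale. Its difference was -5.41 ± 0.15 (SE), with an adjusted p of 2.88e-51. HSP101, the chaperone that dissolves protein aggregates, read 9.56, 9.84, 11.23 and 9.87 at 7 h and 5.37, 6.06, 5.67 and 5.79 at 12 h, with replicate 3 the highest of all. The difference was -4.40 ± 0.21 with this array and -4.03 without it. HSP17.6A, a small cytosolic chaperone, changed by -4.78 ± 0.25, and HSP90.1 by -4.62 ± 0.26. Outside the list, the chaperone gene Hsp70b changed by -5.12 ± 0.21. The largest fall of all loci was that of AT1G52560, which has no symbol in the reference table and went from a mean of 10.92 to 4.45. HSFA9, the heat shock factor of late seed maturation, fell less in this interval, by 1.88 ± 0.16 on the log2 scale. Most of its decline came earlier, from a mean of 11.52 in dry seed and 9.96 at 3 h to 5.18 at 7 h. At 12 h it was at 3.30, near the bottom of the scale. The remaining member, HSP18.2, changed by -0.21 and was not called.

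LEA proteins, which are hydrophilic and shield cells during drying, followed with 12 of 13 measured members lower and a median of -2.78. RAB18, a dehydrin that abscisic acid induces, read 14.086, 13.9997, 13.978 and 14.090 at 7 h and 10.74, 10.93, 10.39 and 11.20 at 12 h. The 7 h arrays were nearly equal and well above every 12 h array. The difference was -3.22 ± 0.34, with an adjusted p of 7.82e-14. ECP31 changed by -3.74 ± 0.26, LEA7 by -3.43 ± 0.30 and LEA14 by -3.35 ± 0.22. LTI30, a dehydrin outside the list, fell by 4.27 ± 0.37 on the log2 scale. Genes that make or break down the protective sugars of the raffinose family and their inositol precursor were split. Of 11 measured members 5 fell, the others lay between AGAL2 (-0.14) and AGAL1 (0.71), which encode alpha-galactosidases, and the list's median was -0.14. GolS1, galactinol synthase, which commits carbon to raffinose, read 9.41, 9.80, 10.03 and 9.68 at 7 h and 4.83, 5.40, 5.55 and 5.81 at 12 h. All 12 h arrays were far below all 7 h arrays, with a difference of -4.33 ± 0.20 and an adjusted p of 2.71e-34. MIPS2, which makes the inositol precursor, changed by -4.11 ± 0.16, GolS2 by -2.64 ± 0.23 and stachyose synthase (STS) by -1.77 ± 0.19.

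Storage protein and oil body messages also fell. Of 15 measured members 13 fell, and the median was -1.84, with several members near the top of the scale at 7 h, where differences are compressed. OLEO4, an oleosin that coats oil bodies, read 13.14, 13.38, 13.49 and 13.29 at 7 h and 10.01, 10.87, 10.11 and 10.99 at 12 h. The groups were apart, and the 12 h arrays split into a lower and a higher pair. The difference was -2.83 ± 0.27, with an adjusted p of 1.08e-15. The caleosin CLO2 changed by -2.94 ± 0.23, OLEO2 by -2.31 ± 0.30 and the albumin gene SESA5 by -2.38 ± 0.42. CRA1, a cruciferin and one of the main storage globulins, read 14.41, 14.48, 14.21 and 14.52 at 7 h and 12.54, 13.12, 12.78 and 13.46 at 12 h. It was still high on every 12 h array, although below every 7 h array, with a difference of -1.43 ± 0.28 and an adjusted p of 7.51e-06. Its 7 h values were the highest of any locus on their arrays, so it lay at the top of the scale and the difference may be understated. The albumins SESA1 (-0.63) and SESA2 (0.09) were not called. The counts of these 4 lists were the same without replicate 3 at 7 h. In contrast to the storage messages, none of 17 measured genes of oil breakdown and the glyoxylate cycle was called, with a median of -0.06, a range from -0.81 to 0.39, and 3 higher and 4 lower by limma's adjusted p alone.

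**Figure D2:**
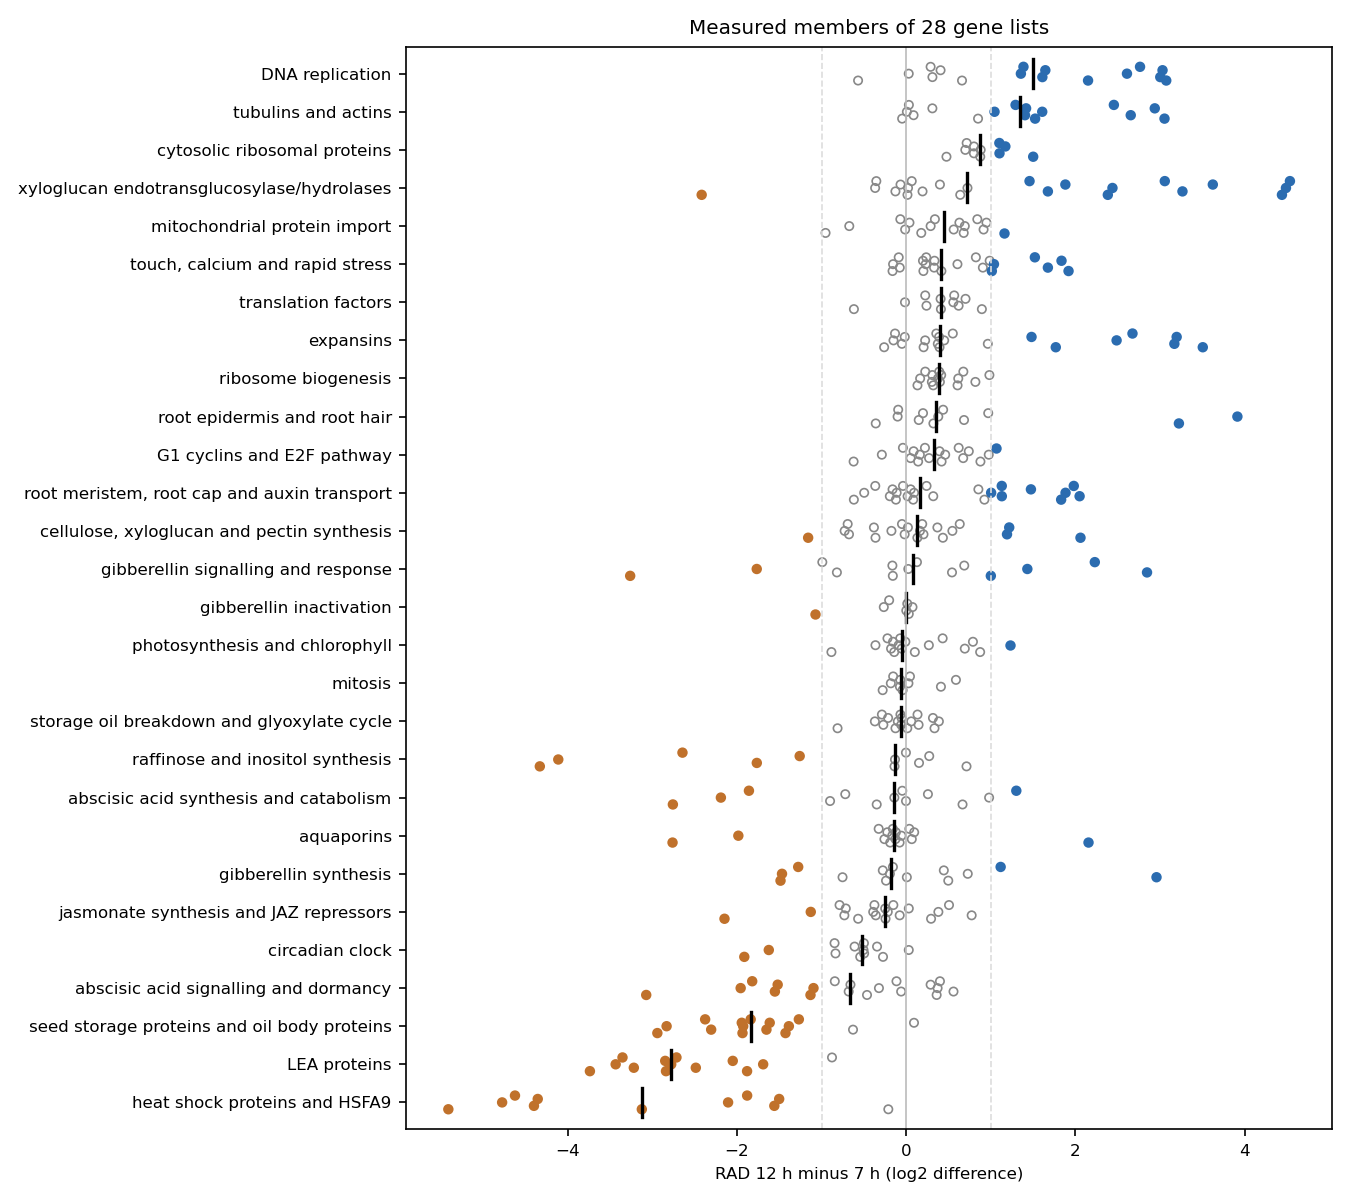
Log2 difference between RAD at 12 h and 7 h (horizontal axis) for every measured member of 28 gene lists, ordered by list median (black bar). Filled points were called higher (blue) or lower (orange), open points were not called, and dashed lines mark differences of 1 and -1. Heat shock proteins (median -3.13) stand at the bottom and DNA replication (1.50) at the top.

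Of 16 measured aquaporins, the water channels of membranes, 2 fell and 1 rose, and the other 13 lay between PIP1A (-0.33) and PIP1;5 (0.09) and were not called. TIP3;1, an aquaporin of the membrane of protein storage vacuoles, read 12.23, 12.61, 12.70 and 12.53 at 7 h and 9.28, 10.07, 9.02 and 10.67 at 12 h. The groups did not overlap, with a wider spread at 12 h, and the difference was -2.76 ± 0.36. Its relative TIP3;2 fell by 1.98 ± 0.26. The one that rose was PIP1C, a plasma membrane aquaporin, which read 4.97, 5.0, 4.90 and 5.41 at 7 h and 7.68, 6.92, 7.08 and 7.22 at 12 h. Every 12 h array was above every 7 h array, by 2.15 ± 0.16, with an adjusted p of 2.39e-21.

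Cell wall genes gave many of the largest increases. Among 23 measured XTH genes, whose enzymes cut and rejoin xyloglucan in the wall, 11 rose and 1 fell, with a median of 0.72. XTH9 read 6.58, 6.47, 3.59 and 6.68 at 7 h and 10.87, 10.09, 10.22 and 10.29 at 12 h. The groups were far apart, and replicate 3 at 7 h was lower than its group by itself. The difference was 4.54 ± 0.38 (23.2-fold) and 3.79 without this array. XTH4 read 4.59, 4.33, 3.70 and 5.84 at 7 h and 9.68, 8.77, 9.0 and 8.96 at 12 h. Every 12 h array was high, and the difference was 4.49 ± 0.27, with an adjusted p of 4.15e-27. XTH15 rose by 4.44 ± 0.39 and XTH19 by 3.62 ± 0.46, the latter by 2.89 without replicate 3 at 7 h. XTH25 went the other way and fell by 2.42 ± 0.23 on the log2 scale. Of 21 measured expansins, 7 rose and none fell, with a median of 0.39. EXPA9 read 3.38, 4.16, 3.70 and 3.92 at 7 h, near the bottom of the scale, and 7.63, 6.67, 7.49 and 7.39 at 12 h. All 12 h arrays were clearly above, by 3.51 ± 0.20, with an adjusted p of 1.17e-28. EXPA1 was already high at 7 h, at 10.11, 9.30, 8.37 and 9.94, and reached 12.60, 12.58, 12.72 and 12.63. The 12 h arrays were almost equal and above all 7 h arrays, by 3.20 ± 0.35. EXPA15 rose by 3.17 ± 0.21 and EXPA3 by 2.67 ± 0.27. EXPA10 was higher by 0.96 ± 0.21, with no overlap but under the fold minimum. It passed that minimum without replicate 1 (1.06) or replicate 4 (1.01) at 7 h, or without replicate 1 at 12 h (1.01).

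Other wall genes moved with them. GH9B1, an endoglucanase of elongating tissue, rose by 3.76 ± 0.23. BXL2, a beta-xylosidase, rose by 3.74 ± 0.30, or 3.04 without replicate 3 at 7 h. EXO, a secreted protein induced by brassinosteroids, rose by 4.30 ± 0.38. The largest increase of all was that of AT3G15720, a locus without a symbol, which went from a mean of 3.64 to 8.55, a difference of 4.90 ± 0.22. Of 21 measured genes of cellulose, xyloglucan and pectin synthesis 3 rose and 1 fell, with a median of 0.13, and without a fold minimum 6 were higher and 6 lower. CSLC4, the xyloglucan backbone synthase, rose by 2.06 ± 0.21, the xylosyltransferase XXT1 by 1.19 ± 0.18 and the epimerase GAE6 by 1.22 ± 0.19. RHM1, which makes UDP-rhamnose for pectin, fell by 1.16 ± 0.14, or 0.97 and no longer called without replicate 1 at 12 h. Microtubule genes rose together: of 16 measured tubulin, actin and associated genes 10 rose (9 without replicate 3 at 7 h), none fell, and the median was 1.35. TUB5, a beta-tubulin, read 3.91, 3.86, 3.78 and 4.28 at 7 h and 7.51, 6.24, 7.04 and 7.25 at 12 h. Every 7 h array was low and every 12 h array higher, by 3.05 ± 0.17, with an adjusted p of 4.48e-29. The alpha-tubulins TUA6, TUA2 and TUA4 rose by 2.94 ± 0.34, 2.65 ± 0.15 and 2.45 ± 0.24, while the actins ACT2 (0.03), ACT7 (0.31) and ACT8 (0.01) were not called.

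DNA replication genes were the list with the highest median, 1.50. Of 16 measured members 10 rose and none fell, and the count was the same without replicate 3 at 7 h. MCM2, a subunit of the helicase that opens replication origins, read 3.39, 3.20, 2.80 and 3.92 at 7 h and 6.47, 6.31, 6.51 and 6.31 at 12 h. The 12 h arrays were tightly grouped and all above the 7 h arrays, by 3.07 ± 0.17, with an adjusted p of 1.68e-28. PCNA1, the sliding clamp of DNA polymerase, read 4.53, 4.76, 4.78 and 5.27 at 7 h and 8.30, 7.56, 7.99 and 7.61 at 12 h. Again no 12 h array came near a 7 h array, and the difference was 3.03 ± 0.18. MCM3 rose by 3.00 ± 0.16 and MCM7 by 2.76 ± 0.22. Members not called included TK1A (-0.57), CDC45 (0.31) and TSO2 (0.66), the last a subunit of ribonucleotide reductase. Of 18 measured genes of G1 cyclins and the E2F pathway 1 rose, or 2 without replicate 1 at 7 h or replicate 3 or 4 at 12 h. This was E2FA, a transcription factor that activates replication genes, at 1.06 ± 0.17, and it was under the fold minimum without replicate 1 at 7 h (0.87), after a repeated quantile normalization (0.96) and with array weights (0.97). No member of the mitosis list (0 of 10) was called, with a median of -0.06 and 2 higher by limma's adjusted p alone. The mitotic cyclin CYCB1;1 changed by 0.59 and the cytokinesis syntaxin KN by 0.04.

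Genes of protein synthesis differed by small amounts. The list of cytosolic ribosomal proteins was a chosen set and not the whole family. All 11 of its measured members had every 12 h array above every 7 h array, with a median of 0.88 and a range from 0.48 to 1.50. The fold minimum let 4 of them be called, and 2 without replicate 3 at 7 h, where RPS18A (0.99) and RPL23AB (0.92) fell short. RPL10B read 8.80, 8.94, 8.62 and 9.0 at 7 h and 10.09, 10.47, 10.38 and 10.43 at 12 h. The spread within each group was small beside the difference of 1.50 ± 0.16, which had an adjusted p of 5.04e-14. Without a fold minimum, 21.2% of all loci were higher and 19.3% lower. By that rule all 11 listed ribosomal protein genes were higher, as were 10 of 15 ribosome biogenesis genes (median 0.39). So were 8 of 11 translation factors (0.41) and 10 of 16 genes of mitochondrial protein import (0.45). By the same rule 1 translation factor and 2 import genes were lower, and the lowest values were -0.62 and -0.95. With the fold minimum these last 3 lists held 0, 0 and 1 called genes, the 1 being TIM10, a chaperone of the intermembrane space, at 1.16 ± 0.11. A member of ribosome biogenesis was called without replicate 1 or 4 at 7 h or replicate 2 or 3 at 12 h, and 2 of the import list without replicate 2 at 7 h, while 1 import gene was called lower without replicate 4 at 12 h. TIM17-1, a subunit of the inner membrane translocase, changed by -0.07 ± 0.14 and was not called.

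The gibberellin pathway changed at successive enzymes in opposite directions. Of 14 measured synthesis genes, GA3OX1 and GA3OX2, the 3-oxidases that make the active hormone, rose, and GA20OX1, GA20OX2 and GA20OX3, the 20-oxidases of the preceding step, fell. GA3OX2 read 7.89, 7.56, 6.28 and 7.66 at 7 h and 10.65, 10.05, 10.30 and 10.23 at 12 h. All 12 h arrays were above all 7 h arrays, by 2.96 ± 0.18 (7.77-fold), with an adjusted p of 3.12e-26, and by 2.60 without replicate 3 at 7 h. GA3OX1 read 7.32, 5.72, 6.07 and 5.73 at 7 h and 8.52, 7.09, 6.80 and 6.91 at 12 h. Replicate 1 was the highest array of both groups, so the groups overlapped, and the difference was 1.12 ± 0.23. That of GA3OX1 was under the fold minimum without replicate 2 (0.95) or replicate 4 (0.96) at 7 h or replicate 1 at 12 h (0.72), and in a fit of the 8 arrays by themselves its adjusted p was 0.0536. GA20OX3 read 10.70, 11.02, 10.33 and 11.26 at 7 h and 9.08, 9.48, 9.27 and 9.54 at 12 h. The groups did not overlap, and the difference was -1.49 ± 0.24, with an adjusted p of 1.39e-07. GA20OX2 read 10.29, 10.67, 8.62 and 10.71 at 7 h and 8.32, 8.65, 8.60 and 8.86 at 12 h. Only replicate 3 at 7 h lay within the 12 h range, and the difference was -1.47 ± 0.32 with it and -1.95 without it. GA20OX1 changed by -1.28 ± 0.21, and by -1.66 without the same array.

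Of 7 genes of gibberellin inactivation, GA2OX2 fell, by 1.08 ± 0.18. It changed by -0.80 without replicate 3 at 7 h and by -0.98 without replicate 3 at 12 h, and was then not called. Of 14 measured genes of gibberellin perception and response 4 rose and 2 fell, or 3 and 3 without replicate 3 at 7 h. SCL3, a regulator that gibberellin represses and that promotes the response, read 10.63, 10.65, 10.23 and 10.87 at 7 h and 6.75, 7.49, 7.45 and 7.65 at 12 h. Every 12 h array was far below, with a difference of -3.26 ± 0.22 and an adjusted p of 1.05e-23. The receptor gene GID1A fell by 1.77 ± 0.14. RGL1, which encodes a DELLA repressor of the response, rose by 2.23 ± 0.18. The DELLA genes differed among themselves, since RGL2, the main repressor of germination, read 10.44, 10.49, 10.33 and 10.28 at 7 h and 10.04, 10.25, 10.33 and 10.25 at 12 h. Its groups overlapped, with a difference of -0.16 ± 0.14 and an adjusted p of 0.392. RGL3 was called at 1.00 ± 0.14, but not without replicate 3 at 7 h (0.86), without replicate 3 at 12 h (0.96), after a repeated quantile normalization (0.97) or with array weights (0.94). GASA14 and GASA4, from a family of small proteins that gibberellin regulates, rose by 2.85 ± 0.24 and 1.43 ± 0.30.

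Abscisic acid genes fell more often than they rose. Of 13 measured genes of synthesis and catabolism 3 fell and 1 rose. CYP707A2, the hydroxylase that degrades abscisic acid during imbibition, read 11.18, 11.63, 12.09 and 11.42 at 7 h and 8.44, 8.93, 8.97 and 8.95 at 12 h. The groups were far apart and lower at 12 h, with a difference of -2.76 ± 0.27 and an adjusted p of 1.25e-15. Of the synthesis enzymes, NCED9 changed by -2.19 ± 0.21 and ABA1 by -1.86 ± 0.18, whereas NCED5 rose by 1.30 ± 0.21. Another hydroxylase gene, CYP707A3, was higher by 0.98, just under the fold minimum, and the number called higher was 2 in place of 1 without replicate 1 or 2 at 7 h or replicate 3 or 4 at 12 h. Of 19 genes of abscisic acid signalling and dormancy 7 fell and none rose, with a median of -0.66 and a count of 5 to 7 when any array was left out. By limma's adjusted p alone 12 were lower and 4 higher, against 19.3% and 21.2% of all loci. OST1, a kinase that carries the abscisic acid signal, read 8.34, 8.21, 8.77 and 8.36 at 7 h and 5.57, 5.42, 5.05 and 5.34 at 12 h. No array of one group came near the other, and the difference was -3.07 ± 0.22, with an adjusted p of 4.87e-22. DOG1, a central regulator of dormancy, read 6.22, 6.34, 6.66 and 6.75 at 7 h and 4.64, 5.11, 5.01 and 5.0 at 12 h. All 12 h arrays were lower, with a difference of -1.55 ± 0.17. The phosphatase AHG1 changed by -1.96 ± 0.26, PIF1, which represses germination in the dark, by -1.52 ± 0.17 and its target SOM by -1.82 ± 0.20. The transcription factors of abscisic acid action moved less and were not called: ABI3 by -0.66 ± 0.15, ABI5 by -0.46 ± 0.15 and ABI4 by 0.40 ± 0.16. From 3 h to 7 h the mean of ABI5 had gone from 10.26 to 7.61, that of ABI4 from 7.02 to 9.63 and that of ABI3 from 7.85 to 8.88.

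Genes of root identity and auxin transport rose in part. Of 24 measured genes of the root meristem, root cap and auxin transport 8 rose and none fell, with a median of 0.17. WER, a MYB factor of the root epidermis, read 4.56, 4.87, 3.18 and 4.52 at 7 h and 8.75, 7.54, 8.09 and 8.40 at 12 h. All 12 h arrays were high, and the difference was 3.91 ± 0.19, or 3.55 without replicate 3 at 7 h. EGL3, a partner of such MYB factors, rose by 3.22 ± 0.18. WER and EGL3 were the only 2 of 12 measured genes of root epidermis and root hairs that were called. The count was 3 without replicate 3 at 7 h. PIN2, an auxin efflux carrier, rose by 1.98 ± 0.19, the influx carrier AUX1 by 1.83 ± 0.13 and MP, an auxin response factor needed for the embryonic root, by 1.88 ± 0.21. SMB, a NAC factor of the root cap, rose by 1.47 ± 0.15 and SHR, which patterns the ground tissue, by 1.13 ± 0.16, or 0.98 after a repeated quantile normalization. PLT1 (0.92), PLT2 (0.09) and SCR (-0.62), which act in the stem cell niche, were not called.

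Among other transcription factors, MYB34, an activator of indole glucosinolate synthesis, rose by 3.25 ± 0.20, the homeobox gene HB31 by 2.59 ± 0.18 and bHLH093 by 2.51 ± 0.18. NAC13 changed by -1.69 ± 0.18, EEL, a bZIP factor of late embryogenesis, by -1.72 ± 0.16, ERF2 by -1.81 ± 0.26 and bZIP2 by -1.69 ± 0.19. CCA1, a morning gene of the circadian clock, changed by -1.91 ± 0.16 and LNK2 by -1.62 ± 0.16. They were the 2 called of 12 measured clock genes, whose median was -0.52. By limma's adjusted p alone 9 of the 12 were lower and 0 higher, against 19.3% and 21.2% of all loci. GPT2, a transporter of glucose 6-phosphate into plastids, read 8.55, 8.25, 6.48 and 8.52 at 7 h and 12.63, 11.89, 12.07 and 12.24 at 12 h. The 12 h arrays were all far above, by 4.26 ± 0.32, or 3.77 without replicate 3 at 7 h. In lipid metabolism, KCS20, which elongates very long chain fatty acids, rose by 3.72 ± 0.20 and LACS2, an acyl-CoA synthetase of cutin formation, by 3.79 ± 0.18. G-TMT, the methyltransferase that makes alpha-tocopherol, rose by 4.14 ± 0.28. Of 17 measured genes of photosynthesis and chlorophyll 1 rose, RCA, the activase of Rubisco, at 1.23 ± 0.21, and without replicate 3 at 7 h 1 other was called lower.

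The touch, calcium and rapid stress genes varied between the 12 h arrays themselves. Of 21 measured members 6 rose and none fell, with a median of 0.42. PUB23, a ubiquitin ligase induced by stress, read 4.66, 4.68, 4.28 and 4.57 at 7 h and 7.67, 6.79, 5.74 and 5.66 at 12 h. Replicates 1 and 2 at 12 h were higher than replicates 3 and 4, although all were above the 7 h arrays, and the difference was 1.92 ± 0.34. WRKY53 read 4.63, 4.94, 4.15 and 3.83 at 7 h and 8.24, 6.99, 4.55 and 5.11 at 12 h. Here replicate 3 at 12 h lay within the 7 h values and replicate 4 just above them, and the difference was 1.84 ± 0.52 with an adjusted p of 0.00213. ERF5 rose by 1.52 ± 0.40 and XTH22, the touch gene also known as TCH4, by 1.67 ± 0.43. Without replicate 1 at 12 h the count was 3 in place of 6, and WRKY53 changed by 1.16 with an adjusted p of 0.0764. The count was 4 without replicate 3 at 7 h, and 3 to 9 when any array was left out. Of 19 measured jasmonate genes 2 fell, or 3 without replicate 3 at 7 h, and without replicate 4 at 12 h 1 was called higher. The repressor genes JAZ8 and JAZ7 changed by -2.15 ± 0.31 and -1.13 ± 0.30. Without replicate 2 at 7 h JAZ7 changed by -0.92 and was not called, which left 1.

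**Figure D3:**
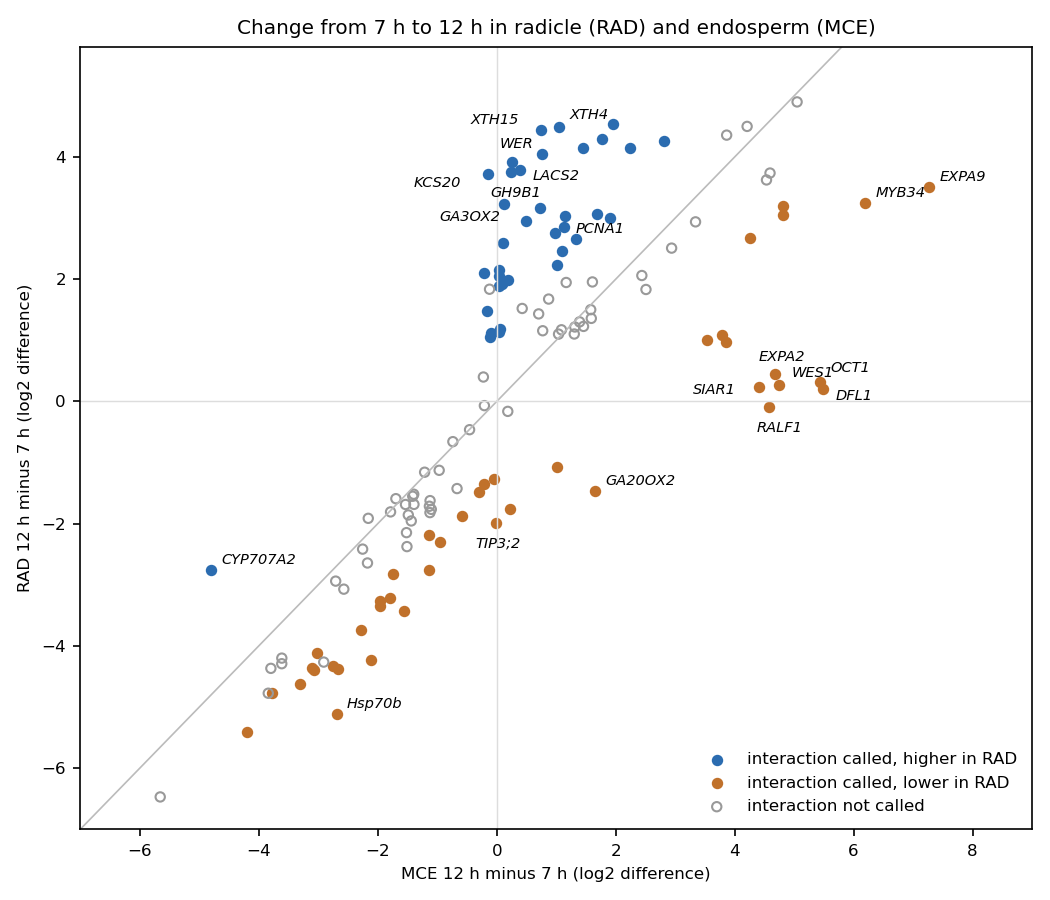
Log2 difference between 12 h and 7 h in MCE (horizontal axis) and in RAD (vertical axis) for the 135 genes that the naming rule allows, most of them chosen for their change in RAD or between the tissues. Points on the grey line changed equally, and colours give the call of the interaction. Genes such as WER and KCS20 lie near 0 in MCE and high in RAD, and DFL1, OCT1 and RALF1 lie near 0 in RAD and high in MCE.

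The change in RAD was then set against that in MCE over the same hours, as an interaction in the same fit. Of all loci, 557 had a higher change in RAD (2.61%) and 496 a lower one (2.33%). Among the 1285 loci that rose in RAD the interaction was higher for 338, lower for 56 and not called for 891. Among the 958 that fell it was lower for 202, higher for 17 and not called for 739. A missing call does not show that the tissues changed alike. Of the 20 genes whose called interaction is given below, none had an adjusted p above 2.16e-05.

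Genes with a larger rise in RAD included KCS20, with an interaction of 3.87 ± 0.28, XTH15 with 3.69 ± 0.55, WER with 3.66 ± 0.26, GH9B1 with 3.52 ± 0.32, XTH4 with 3.44 ± 0.38 and LACS2 with 3.39 ± 0.26. KCS20 had means of 3.52 and 3.38 in MCE, and WER 2.88 and 3.14, both low at 7 h and 12 h. The interaction was also higher for GA3OX2 at 2.46 ± 0.26 and for PCNA1 at 1.89 ± 0.25. In the list of DNA replication 8 of 16 genes had a positive interaction and 0 a negative one. Among the 23 XTH genes 8 had a positive and 2 a negative one. The list of LEA proteins had 7 of 13 and that of heat shock proteins 6 of 11 with a negative interaction. Their medians in RAD were -2.78 and -3.13. MCE also had negative medians in these lists, nearer to zero, of -1.47 and -2.34. Hsp70b, which is in neither list, had an interaction of -2.42 ± 0.30. Its means at 7 h and 12 h were 11.48 and 6.37 in RAD and 9.71 and 7.01 in MCE. Those of HSP101 were 10.12 and 5.72 in RAD and 8.29 and 5.22 in MCE. Both genes were thus already lower in MCE at 7 h. TIP3;2 fell in RAD and had means of 9.29 and 9.28 in MCE, with an interaction of -1.97 ± 0.37.

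The largest interactions in the other direction were from genes that rose in MCE. DFL1 and WES1, which conjugate auxin to amino acids, had interactions of -5.29 ± 0.26 and -4.47 ± 0.25. DFL1 read 3.76, 3.69, 4.30 and 4.05 in RAD at 7 h and 4.21, 4.21, 4.30 and 3.86 at 12 h. It stayed low on all RAD arrays, with overlapping groups, while its MCE means were 4.23 and 9.72. OCT1, a transporter of organic cations, had an interaction of -5.12 ± 0.30, the peptide gene RALF1 of -4.67 ± 0.24, EXPA2 of -4.23 ± 0.34 and SIAR1, an amino acid exporter, of -4.19 ± 0.21. In RAD these 4 changed by 0.31, -0.09, 0.45 and 0.23 and were not called. Some genes rose in both tissues and by more in MCE: EXPA9 had MCE means of 4.14 and 11.41 and an interaction of -3.77 ± 0.28, and MYB34 had MCE means of 3.61 and 9.80 and one of -2.94 ± 0.29. Expansins as a list had 6 of 21 members with a lower and 1 with a higher change in RAD. GA20OX2 fell in RAD while its MCE means were 6.84 and 8.50, an interaction of -3.12 ± 0.45, which was -2.28 without replicate 2 of MCE at 7 h and -3.61 without replicate 3 of RAD at 7 h. CYP707A2 fell in both, with MCE means of 11.83 and 7.02, and its interaction was 2.05 ± 0.38. In the list of cytosolic ribosomal proteins no interaction was called (0 of 11), with medians of 0.88 in RAD and 1.04 in MCE. RPL10B and RPS18A had interactions of -0.08 ± 0.22 and 0.06 ± 0.13.

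**Figure D4:**
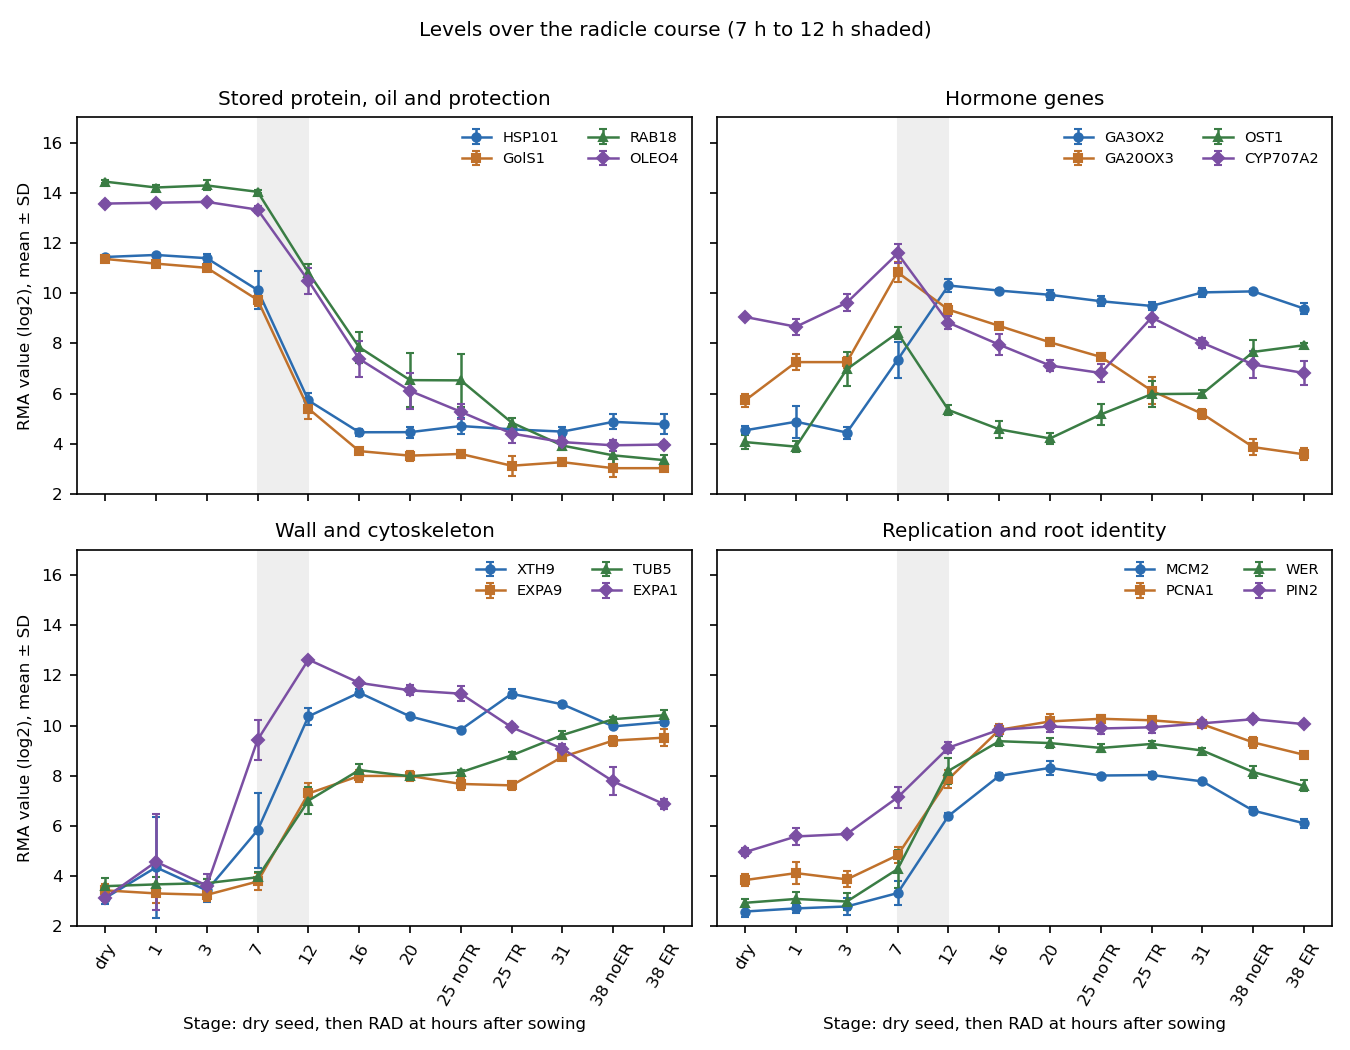
Mean log2 RMA value and SD (n = 4 arrays) of 16 genes in dry seed and at the 11 stages of RAD, placed at equal distances along the horizontal axis, with the interval from 7 h to 12 h shaded. noTR and TR are seeds without and with a ruptured testa, noER and ER those without and with a ruptured endosperm. HSP101 and RAB18 are high up to 7 h, while MCM2, PCNA1 and WER are low up to 3 h and rise most between 7 h and 12 h. From 3 h to 7 h WER goes from 2.99 to 4.28, PCNA1 from 3.87 to 4.84 and MCM2 from 2.79 to 3.33.

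The levels over the whole course, given as means with no test since neighbouring intervals share arrays, show where the interval lies. HSP101 was at 11.44 in dry seed, 11.39 at 3 h, 10.12 at 7 h and 5.72 at 12 h, and at 4.46 at 16 h. Most of its decline lay between 7 h and 12 h. RAB18 was at 14.44 in dry seed and 14.04 at 7 h, and declined further after 12 h, to 7.84 at 16 h and 3.35 at 38 h with ruptured endosperm. CRA1 was at 14.40 at 7 h and 12.98 at 12 h and went on to 10.71 at 16 h and 3.60 at the last stage. MCM2 went from 3.33 to 6.40 between 7 h and 12 h and on to 8.0 at 16 h, and PCNA1 from 4.84 to 7.87 and on to 9.83. At the last stage PCNA1 was at 8.84, above its 12 h level, and MCM2 at 6.11, below it. EXPA1 and GPT2, by contrast, were at their highest stage means at 12 h, 12.63 and 12.21, and were at 6.87 and 5.64 at the last stage. GA20OX3 and CYP707A2 had their highest stage means at 7 h, 10.83 and 11.58, after 7.25 and 9.62 at 3 h. GA3OX2 was at 4.44 at 3 h, 7.35 at 7 h and 10.31 at 12 h, and remained between 9.39 and 10.10 afterwards. OST1 rose from 3.88 at 1 h to 8.42 at 7 h, was at 5.35 at 12 h, and was at 7.93 at the last stage. Its fall between 7 h and 12 h was followed by a later recovery.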

How the data were processed

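The authors deposited a table of log2 expression values in which each array is a column and each locus a line. Per the labels, biotin-labelled cRNA was made from 100 ng of RNA with an Affymetrix 3' kit, and per the submitters' processing notes RMA and affy were used (versions, the probe definition and the genome build are not given in the sources used here). Symbols came from a reference table (assembly TAIR10.1), which held 21205 of the 21313 loci. All 111 arrays were fitted with 1 mean for each of 28 groups in R 4.3.3 with limma 3.58.1 (83 residual degrees of freedom, a prior worth 8.02, typical SD 0.193), two-sided, with Benjamini-Hochberg adjustment over all loci. The number of arrays limits the precision. The fit was tested on simulated data. In 3 MCE arrays of later stages the source label names another stage than the title, and the title was used.

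The comparison, the 28 gene lists and 4 marker lists (453 genes measured) and the genes named were chosen with earlier results of these data known. Named were the 15 largest called changes in each direction without overlap and 6 interactions in each direction. Up to 4 called members per list and direction were added, and up to 8 transcription factors in each direction. These factors were picked by a prefix or a class name in the symbol or its synonyms. A set of 16 germination genes was included as well. Genes of known function were preferred. Further list members that were not called (such as AGAL1, ACT2, CDC45, CYP707A3, HSP18.2, PIP1A, PLT1 and SESA1) were named after their values were seen.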

Additional observations from a re-analysis of the deposited data

Results flagged for a closer look

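Among the named genes and the 2 RAD groups of 4 arrays each, 234 sets of 4 values, 16 held a value whose gap to the nearest other value took up more of the range of the set than Dixon's critical value allows. Chance flags about 1 in 20 such sets. In 8 of the 16 the array was replicate 3 at 7 h. It was low for XTH9 (3.59), XTH19 (6.42), GPT2 (6.48), RGL3 (8.37), ABI3 (8.36), XXT1 (8.61) and SMB (3.52), and high for AHG1 (11.70). In 5 it was replicate 1 at 12 h, which was high for GA3OX1 (8.52) and AUX1 (7.40) and low for CYP707A2 (8.44), RHM1 (5.51) and NAC13 (5.95). The others were AT3G15720 on replicate 4 at 7 h (4.52), ABI4 on replicate 2 at 12 h (9.76) and SIAR1 on replicate 4 at 12 h (3.11).

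The change from 7 h to 12 h differed between RAD and MCE, by the interaction in limma, for the 20 genes whose interaction is given above and for other named genes. The change in RAD minus that in MCE was 3.87 for KCS20, 3.69 for XTH15, 3.66 for WER, 3.52 for GH9B1, 3.44 for XTH4, 3.39 for LACS2, 2.46 for GA3OX2, 2.05 for CYP707A2 and 1.89 for PCNA1. It was -5.29 for DFL1, -5.12 for OCT1, -4.67 for RALF1, -4.47 for WES1, -4.23 for EXPA2, -4.19 for SIAR1, -3.77 for EXPA9, -3.12 for GA20OX2, -2.94 for MYB34, -2.42 for Hsp70b and -1.97 for TIP3;2.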

How the results depend on the processing

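Only the fold minimum moved the counts by over 1.5 times. Without one, 8646 loci were called (4523 higher and 4123 lower at 12 h) and 2623 interactions (1429 higher and 1194 lower), and with a minimum of 2 on the log2 scale 530 (288 and 242) and 207 (109 and 98). A filter on the dimmest 25% of loci, repeated quantile normalization, added scaling by a trimmed mean, an intensity trend, array weights, the groups of the comparison by themselves, and fits without the 6 redone arrays or the 3 with differing labels gave 2002 to 2243 calls and 932 to 1058 interactions. Leaving out each array gave 2001 to 2438 calls (1133 to 1382 higher and 868 to 1057 lower) and 987 to 1123 interactions (520 to 604 and 467 to 528). With the replicate number as a block, 2243 loci (1285 and 958) and 1058 interactions were called. The numbers were not taken as pairs: same-numbered arrays of the 2 RAD groups correlated in their deviations from the group means at 0.199, -0.028, -0.018 and 0.156, and not every array correlated best with its own number. No called named gene changed direction under these settings. Of the recomputed RAD differences and interactions of the named genes, 4460 kept their side of the threshold, 204 were no longer called and 7 were newly called. These counts include the settings without a fold minimum and with one of 2. There the log2 differences stayed the same and calls changed only because the threshold moved. For the other settings the cause was not tested. The promoter motif and product families planned could not be run, since no such reference was at hand. The number of arrays, and signal near background for loci such as EXPA9 at 7 h, limit the precision of low values.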
